A study of Homo sapiens with 6 samples.

Results

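The 8q24 gene desert around MYC was examined for open chromatin in MDA-MB-231 cells, a widely used line of human triple-negative breast cancer, with and without the SIN3 subunit SAP30. All summits called between 127000000 and 130500000 on chromosome 8 (hg19) were taken, extended by 250 bp on each side and merged into loci, and the promoters of MYC, PVT1, LRATD2, POU5F1B and CASC8 were added by annotation. The 6 libraries held 495 summits in this window of 3.5 Mb, out of 205397 in all, and they formed 111 of the 56403 loci found on chromosomes 1 to 22 and X. The loci were chosen by the measured summits themselves, so that each of them is open in at least 1 library by construction and its presence is a description.

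MYC encodes a transcription factor that pairs with MAX and binds E-box DNA to drive growth genes. It lies in a long stretch with few protein-coding genes, and enhancers on both sides of it, many inside long noncoding RNA genes, reach the MYC promoter over large distances in a manner that depends on the tissue. PVT1, the noncoding gene next to MYC, is often gained together with it in tumors. MXD proteins compete with MYC for MAX and bring the SIN3 corepressor, the complex to which SAP30 belongs, to the same DNA.

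The comparison asks how accessible chromatin differs once SAP30 is lost. Parental cells are the line before the knockout, and SAP30-KO1 was derived from them with CRISPR/Cas9 and a guide RNA against SAP30. Per the study's methods several knockout cells were picked and pooled, so that the line descends from few cells. Each group had 3 ATAC-seq libraries, an assay in which a transposase inserts adapters into accessible DNA. The deposited values are peak summits, each with a −log10 q value. In the text, a rank is the percentile of that score within the library's own list, from 0 to 100, and a rank of 0 means that no peak was called at a q value of 0.05, not that the site was closed. A rank orders sites within a library and is not a read count. The labels do not say whether the 3 libraries of a group came from separate cultures, so spreads and p-values describe these libraries and may be technical. With 3 against 3, an exact permutation test cannot give a two-sided p below 0.1.

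The lists held 29762 to 40650 summits per library, and read depth is unknown because the files hold no counts. Any 2 lists had under 1% of their summit positions in common, so none was a copy of another. VIM, CD44 and CAV1, which mark mesenchymal breast cancer cells, had a promoter peak in 6 of 6 libraries and AXL in 3. No library had one at CDH1, the epithelial cadherin, whereas EPCAM and GATA3 had one in 5 libraries each, KRT18 in 3, FOXA1 in 2, and ESR1 and PGR in 1 each. A summit list cannot show whether SAP30 was deleted. The last locus inside the window lay at 130492296 to 130493020, with mean ranks of 19.3 ± 33.4 (Parental) and 46.8 ± 6.71 (SAP30-KO1). The first outside it, at 130520496 to 130521253, had 27.6 ± 35.5 (Parental) and 26.8 ± 30.8 (SAP30-KO1; SD, n = 3 libraries each). At the other border the first locus inside, at 127107215 to 127107889, had 4.53 ± 7.85 and 64.3 ± 11.8, and the nearest outside at 126998963 to 126999656 had 93.7 ± 2.28 and 68.0 ± 15.4.

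The gene desert was dense in open sites in both cell populations. It held 31.7 loci per Mb, against 20.4 in the rest of the long arm of chromosome 8 and 18.6 over the genome. Parental libraries placed 87, 80 and 80 summits there, or 0.237%, 0.262% and 0.238% of their lists. SAP30-KO1 libraries placed 76, 92 and 80, or 0.255%, 0.226% and 0.233%. The 2 groups overlapped in this share, and the difference of means was −0.00762 percentage points. Of the 111 loci, 51 (45.9%) had a peak in all 6 libraries. This was so for 32.3% of loci in the rest of 8q and 28.9% of all loci. A peak in 1 library only was seen at 20 loci (18.0%), against 28.5% of all loci. These shared loci also ranked high, with a median mean rank of 81.2 against 74.4 in the rest of 8q and 69.1 outside 8q. A mean rank of 90 or more was reached by 17 of the 51 (33.3%), against 19.7% and 14.3%. Most of the 111 loci lay in introns (69), 22 were at promoters, 4 in exons and 16 between genes. Promoters made up 19.8% of loci in the window and 30.0% of all loci.

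**Figure D1:**
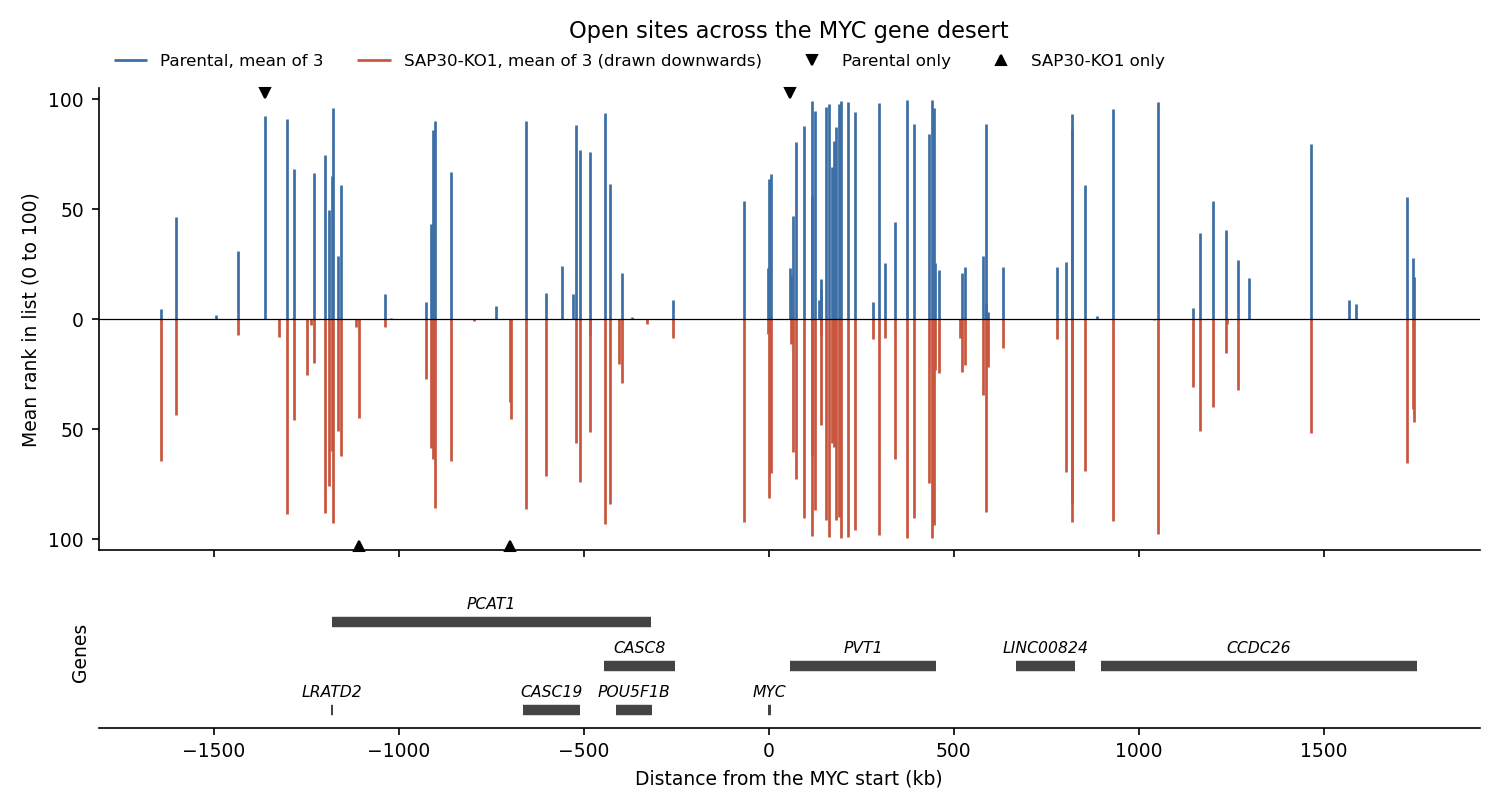
Mean rank of each of the 111 loci (y axis, 0 to 100) against its distance from the MYC start in kb (x axis), with the mean of 3 Parental libraries drawn upwards and that of 3 SAP30-KO1 libraries downwards, triangles for loci with peaks in 1 group only, and gene bodies below. The tallest bars in both groups stand together over PVT1, and the 2 triangles of Parental-only loci lie at −1360.7 and 57.9 kb.

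Open sites clustered over PVT1. The PVT1 gene with 1 kb before its start (128805772 to 129199347) held 30 loci in 393.6 kb, or 7.62 per 100 kb, and 23 of them (76.7%) had a peak in all 6 libraries. The other segments held fewer loci per length. Between MYC and the PVT1 start there were 2 loci in 59.1 kb, both with a peak in all libraries. The 1175 kb from LRATD2 to MYC held 32 loci (2.72 per 100 kb), 10 of them in all libraries. The 1300.7 kb beyond PVT1 held 31 (2.38 per 100 kb), also 10 of them in all libraries. The stretch up to and including LRATD2 held 16, with 6 in all libraries. Of the 17 loci with a mean rank of 90 or more, 12 were in PVT1. The median mean rank of the shared loci was 90.7 in PVT1, 73.9 between LRATD2 and MYC and 75.4 beyond PVT1.

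The strongest sites of the desert ranked near the top in both groups, and all but 1 of the 10 with the highest mean rank lay inside PVT1. First was an intronic PVT1 locus 440.7 kb telomeric of MYC (chr8:129188832-129189474), with Parental ranks of 99.4, 99.9 and 99.9 and SAP30-KO1 ranks of 98.3, 99.9 and 99.9. Next were PVT1 introns at 195.6 kb (chr8:128943743-128944383), with 99.2, 99.3 and 99.6 in Parental and 99.6, 99.8 and 99.5 in SAP30-KO1 libraries, and at 372.9 kb (chr8:129120961-129121771), with 99.8, 99.5 and 99.3 against 99.6, 99.3 and 99.3. In all 3 the groups overlapped, and every library placed them among its very strongest peaks. A locus at 213.6 kb (chr8:128961686-128962556), just before the start of the noncoding gene LINC02912, had group means of 98.8 ± 0.615 and 98.9 ± 0.489. An internal PVT1 promoter at 118.2 kb had 99.0 ± 1.13 and 98.4 ± 0.736. The PVT1 introns at 163.3, 299.1, 233.3 and 447.1 kb had mean ranks over the 6 libraries of 98.5, 98.3, 95.0 and 94.8. The only one of the 10 outside PVT1 lay 1051.6 kb from MYC in an intron of CCDC26 (chr8:129799731-129800520), a long noncoding RNA gene, with 98.6 ± 1.70 for Parental and 97.5 ± 0.112 for SAP30-KO1 (SD, n = 3 each).

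At the shared loci, SAP30-KO1 and Parental ranks differed little in the median, while single loci differed more. The median difference, SAP30-KO1 minus Parental, was −0.599 rank points over the 51 loci, with 30 below 0 and 21 above. The median was −0.312 in the rest of 8q and 0.221 outside 8q. At the 17 loci with a mean rank of 90 or more the differences ran from −8.24 to 1.44, with a median size of 1.08 beside a median SD within a group of 1.02. At the 34 others they ran from −27.7 to 38.4, with a median size of 9.81 beside a median SD of 10.9. In both classes the median size was thus near the SD of single libraries. A mean of 3 libraries varies less than a single library, so this does not show that the differences are within the spread. A percentile also has little room to move near 100.

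**Figure D2:**
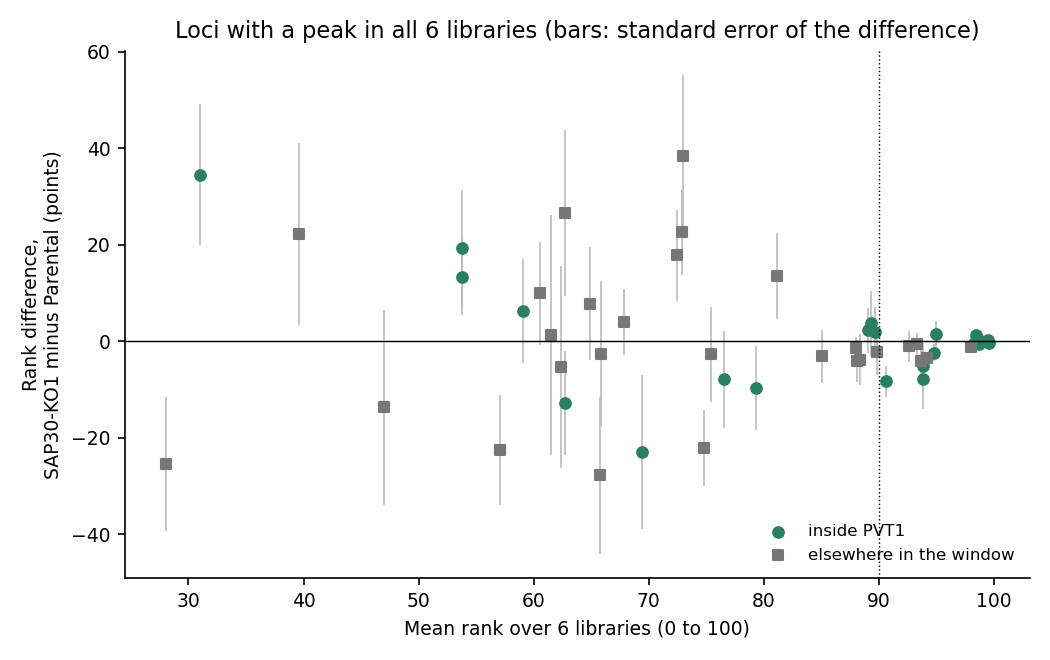
Rank difference, SAP30-KO1 minus Parental (y axis, rank points), against the mean rank over 6 libraries (x axis) for the 51 shared loci; bars are the standard error of the difference from 3 libraries per group, circles lie in PVT1, and the dotted line marks a mean rank of 90. Points right of the line stay between −8.24 and 1.44, while those to the left spread from −27.7 to 38.4.

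The MYC promoter held a peak in all 6 libraries, of middling to high rank. MYC (ENSG00000136997) runs from 128747680 to 128755197 on the plus strand. Distances here are counted from the start at 128748477, shared by 2 of its annotated transcripts, the largest number for any start. The highest summit within 1 kb of any of its 14 annotated starts ranked 75.4, 46.5 and 68.7 in Parental libraries and 86.8, 74.4 and 82.9 in SAP30-KO1 libraries. The SAP30-KO1 values were the higher ones except that replicate 2 of SAP30-KO1 lay just under replicate 1 of Parental. The means were 63.5 ± 15.1 and 81.4 ± 6.38, a difference of 17.8 (exact permutation test, two-sided, p = 0.2, n = 3 each). Without Parental replicate 2, the lowest library, the difference was 9.32.

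The locus at the MYC promoter (chr8:128747127-128748857) was made of separate summits that did not behave alike, a split made after the positions were seen. Summits more than 500 bp upstream of the reference start, at −1100 to −717 bp, were called in all 6 libraries. They lay within 303 bp of another annotated MYC start, so both sites are at MYC starts. There Parental libraries ranked 36.9, 46.5 and 68.7, and SAP30-KO1 libraries 86.8, 74.4 and 82.9. The groups did not overlap at this upstream site, with means of 50.7 ± 16.3 and 81.4 ± 6.38. Within 500 bp of the start, at −227 to 130 bp, a summit was called in 4 libraries. Parental libraries ranked 75.4, 0 and 55.7 there, and SAP30-KO1 libraries 0, 37.2 and 4.35. At the reference start the groups overlapped, and the difference was −29.9 with SDs of 39.1 and 20.3, against 30.7 at the upstream site. The mean differences thus had opposite signs at these sites. Overlapping ranks and libraries with no peak called at the reference start mean that a turn of direction is not shown. Near the 3′ end of MYC, 6.9 kb beyond the start (chr8:128754973-128755858), all libraries had a peak, with means of 65.8 ± 11.4 (Parental) and 69.9 ± 3.25 (SAP30-KO1). CASC11, a noncoding gene that starts close to MYC on the other strand, had a promoter peak in Parental replicates 2 and 3 (10.9 and 58.6) and SAP30-KO1 replicate 1 (20.1) only.

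**Figure D3:**
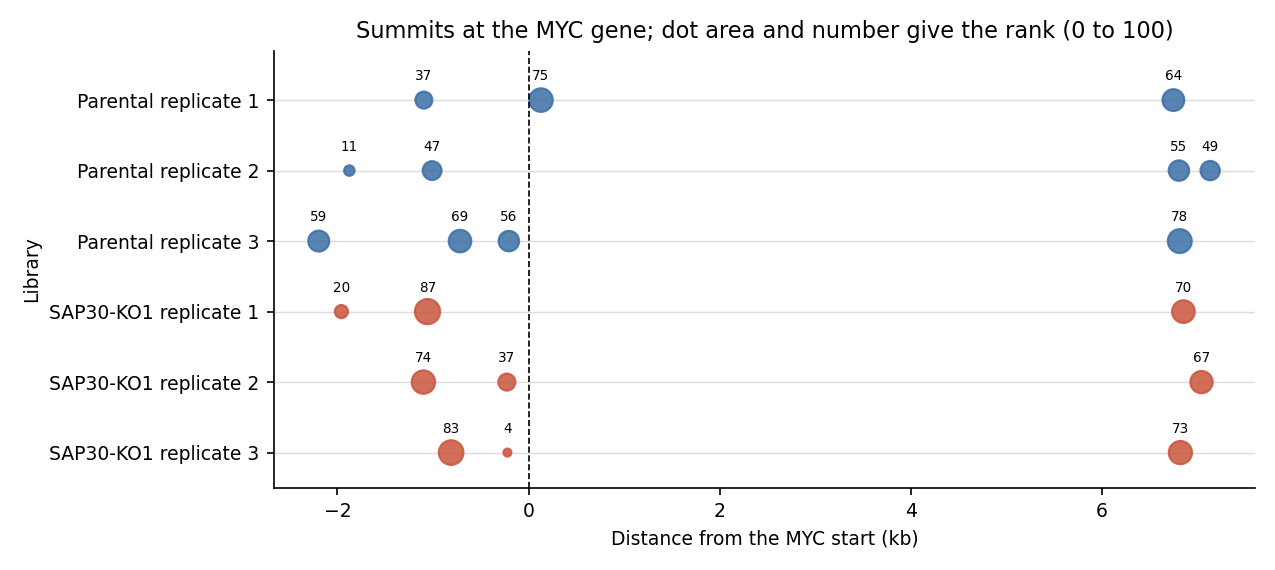
Summits around the MYC gene in each of the 6 libraries (rows) by distance from the MYC start in kb (x axis); dot area and the number above each dot give the rank. The summit near −1 kb ranks 37, 47 and 69 in Parental and 87, 74 and 83 in SAP30-KO1 libraries, and within 500 bp of the dashed line each group has a summit in 2 libraries, ranked 75 and 56 in Parental and 37 and 4 in SAP30-KO1.

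PVT1 (ENSG00000249859, 128806772 to 129199347, plus strand) had its highest-ranked promoter peaks inside the gene, not at its 5′ end. Its 132 annotated starts formed 21 groups when starts within 1 kb were joined. A peak in all libraries was found at 4 groups, a peak in some at 2 and none at 15. Over any start, Parental libraries ranked 98.0, 99.7 and 99.5 and SAP30-KO1 libraries 97.9, 98.1 and 99.2. The groups overlapped, with a difference of −0.654 (exact permutation test, two-sided, p = 0.3, n = 3 each). That value came mainly from starts around 128866642 to 128867455, about 118.2 kb from MYC. The internal start at 128872033 had 98.0, 92.8 and 93.6 in Parental and 89.6, 89.1 and 80.9 in SAP30-KO1 libraries, so that every SAP30-KO1 library ranked below every Parental one (difference −8.24). The starts at 128902442 to 128902961 had 96.5 ± 0.424 against 91.3 ± 8.30, and the start at 128924250 had 80.9 ± 1.86 against 58.0 ± 27.6, with SAP30-KO1 replicate 2 above the Parental libraries at both.

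The 5′ end of PVT1, the promoter closest to MYC, ranked low in both groups. Its 58 starts between 128806772 and 128808279 had ranks of 60.6, 12.2 and 16.6 in Parental libraries and 0, 34.4 and 0 in SAP30-KO1 libraries. SAP30-KO1 replicate 2 lay among the Parental values, and the group means were 29.8 ± 26.8 and 11.5 ± 19.8 (difference −18.3, exact permutation test, two-sided, p = 0.5, n = 3 each). This reading of PVT1 was added after its values were seen. A locus just upstream of these starts, 57.9 kb from MYC (chr8:128806108-128806740), was 1 of only 2 in the window called in every Parental library and in none of SAP30-KO1. Its Parental ranks were 40.5, 12.2 and 16.6. A second locus in the same promoter, at 59.0 kb, had a peak in Parental replicate 1 and SAP30-KO1 replicate 2.

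LRATD2 (ENSG00000168672, 127564688 to 127570723, minus strand), a protein-coding gene at the centromeric side of the desert, had a strong promoter peak in every library. Parental libraries ranked 95.6, 96.0 and 96.1 and SAP30-KO1 libraries 93.0, 92.0 and 92.8. All SAP30-KO1 values lay below all Parental ones. The means were 95.9 ± 0.243 and 92.6 ± 0.551, a difference of −3.27 (exact permutation test, two-sided, p = 0.1, which 3 against 3 cannot go below). The peak at its main start (chr8:127570346-127571100) gave every value but that of SAP30-KO1 replicate 2, which was 91.6 there. A further start at 127568664, which overlaps the start of the noncoding gene PCAT1 on the opposite strand, had overlapping groups with means of 65.1 ± 22.2 and 59.8 ± 28.5. The peak at the main LRATD2 start also lay within 1 kb of a PCAT1 start, and PCAT1 had the same promoter ranks as LRATD2. Peaks at both sites cannot be given to either gene alone.

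POU5F1B, a retrogene copy of the pluripotency factor gene POU5F1, and the noncoding gene CASC8 had no promoter peak in any of the 6 libraries, over 3 and 2 annotated starts. The nearest summit was 2616 bp from a POU5F1B start and 3231 bp from a CASC8 start. For MYC, PVT1 and LRATD2 the farthest summits counted were 303, 582 and 330 bp from a start, and the nearest not counted 1078, 1092 and 8848 bp. Some sites in CASC8 introns, which also lie in PCAT1, nevertheless had a peak in every library. Other loci of the CASC8 body were called in fewer libraries, those at −404.2, −370.1 and −329.8 kb in 1 each. An intronic locus at −441.3 kb from MYC (chr8:128306923-128307461) had 89.3, 96.5 and 94.9 in Parental and 93.0, 93.9 and 92.4 in SAP30-KO1 libraries, which overlapped. Another intronic CASC8 locus, named like the first after its values were seen, lay at −428.4 kb (chr8:128319640-128320490) and had 76.3, 50.7 and 57.9 in Parental and 77.6, 82.5 and 92.5 in SAP30-KO1 libraries. There the groups were apart, by little more than 1 rank point between the closest libraries.

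Of the 40 other annotated genes with a start in the window, 32 had no promoter peak in any library and 3 had one in all 6. These were PCAT1, which shares the LRATD2 peaks, CASC19, a noncoding cancer susceptibility transcript (Parental 76.8 ± 13.2, SAP30-KO1 74.1 ± 10.8), and the noncoding gene ENSG00000286034 (88.7 ± 3.62 and 87.4 ± 0.242). PRNCR1, a noncoding transcript in the stretch of CASC19, had a peak within 1 kb in 4 libraries, at ranks of 77.0 to 94.4. The peak of the other two libraries fell outside that distance at the same locus, with ranks of 86.4 and 91.6. MIR1207, a microRNA gene inside PVT1, had one in 4 libraries, at 47.9 and 29.0 in Parental replicates 1 and 2 and at 3.92 and 22.1 in SAP30-KO1 replicates 1 and 2. ENSG00000253530, an uncharacterized noncoding gene, had 62.8, 58.2 and 78.4 in Parental and 0, 29.7 and 30.1 in SAP30-KO1 libraries (chr8:127518420-127519177), a difference of −46.5 with no overlap.

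Few loci separated the groups. Peaks in each Parental library but none of SAP30-KO1 were seen at 2 of 111 loci (1.80%), against 0.876% of all loci, and the reverse at 2 (1.80%), against 1.43%. The 3 ranks of SAP30-KO1 lay wholly below those of Parental at 6 loci (5.41%), against 4.26% of all loci, and wholly above at 7 (6.31%), against 5.86%. The window was close to the background in the counts of ranks wholly below or above. The 2 loci in each class with peaks in 1 group only are too few to tell from the background. By segment, 5 of the 7 higher loci were among the 32 loci between LRATD2 and MYC, with 1 lower locus there. Of the 6 lower loci, 3 were among the 16 centromeric of or at LRATD2. Inside PVT1 there were 2 lower and no higher loci among 30. The numbers per segment are small, and a difference between segments was not tested.

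The largest difference was at a site without a gene. This intergenic locus (chr8:127387445-127388012) lay at −1360.7 kb from MYC and 180.9 kb from the LRATD2 start. Parental libraries ranked it at 96.7, 84.7 and 95.5, among their strong peaks, and no SAP30-KO1 library had a peak. By the mean rank in its group it was first of the 494 loci of the genome called in all Parental libraries and in none of SAP30-KO1, whose median was 37.1. Its Parental mean was 92.3 ± 6.59. The SAP30-KO1 ranks of 0 follow from how the locus was picked and mean that no peak was called. The size of the difference is therefore not a measured drop in signal. A summit list cannot show whether the DNA of this site is intact in the SAP30-KO1 line, and this was not tested. The loci next to it were weak: at −1324.3 kb only SAP30-KO1 replicate 2 had a peak (24.9), and at −1435.1 kb Parental replicates 2 and 3 (56.7 and 36.1) and SAP30-KO1 replicate 1 (21.5) had one. The closest locus with a peak in all libraries, at −1302.3 kb (chr8:127445792-127446574), had 97.5, 86.8 and 88.6 in Parental and 82.2, 93.8 and 90.3 in SAP30-KO1 libraries. No AP-1, TEAD or E-box sequence (defined further on) lay within 250 bp of the centre of the Parental-only locus.

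The loci with peaks in SAP30-KO1 only were weaker. Both were PCAT1 introns. At −1107.5 kb (chr8:127640640-127641269) the SAP30-KO1 ranks were 60.3, 38.2 and 35.7, and at −700.3 kb (chr8:128047917-128048444) they were 53.8, 35.3 and 23.2. Among the 809 such loci of the genome they stood at places 252 and 376. The Parental-only locus before PVT1 stood at place 414 of 494.

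**Figure D4:**
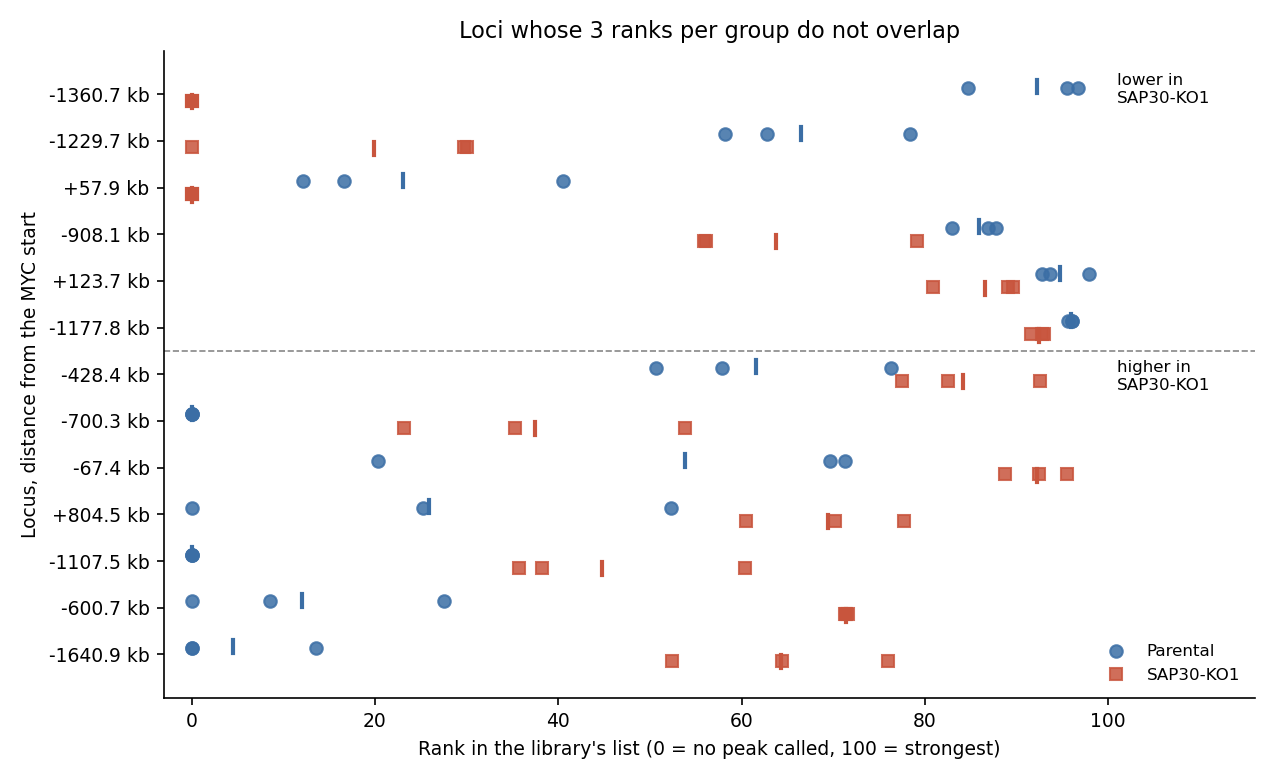
Rank in each library (x axis, 0 for no peak called) at the 13 loci where the 3 Parental (circles) and 3 SAP30-KO1 (squares) ranks do not overlap, named by their distance from the MYC start (y axis); vertical ticks are group means and the dashed line parts lower from higher loci. The top row runs from 84.7 to 96.7 in Parental with SAP30-KO1 at 0, while the LRATD2 promoter at −1177.8 kb differs by a few points only.

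Among the higher loci, the one nearest to MYC lay at −67.4 kb, in an exon of the noncoding gene ENSG00000286010 (chr8:128680720-128681528). Parental libraries ranked it at 71.3, 20.4 and 69.7 and SAP30-KO1 libraries at 95.5, 92.5 and 88.7. The SAP30-KO1 libraries were close together and high, and Parental replicate 2 stood apart from the other two. The difference was 38.4 with SDs of 29.0 and 3.41. A CASC19 intron at −600.7 kb (chr8:128147356-128148166) had 0, 8.54 and 27.6 in Parental and 71.4, 71.6 and 71.3 in SAP30-KO1 libraries. A LINC00861 intron at −1640.9 kb, the first locus of the window, had 13.6, 0 and 0 against 64.4, 52.4 and 76.0. A LINC00824 intron at 804.5 kb (chr8:129552545-129553433) had 52.3, 25.3 and 0 against 70.2, 60.5 and 77.7. At each of these 3 sites at least 1 Parental library had no peak, while every SAP30-KO1 library had one. The remaining lower locus, in a PCAT1 intron at −908.1 kb (chr8:127839951-127840719), had 82.9, 86.9 and 87.7 in Parental and 56.1, 79.2 and 55.9 in SAP30-KO1 libraries.

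Sequences around the locus centres, 250 bp on each side in hg19 and read on both strands, were searched for short motifs. GC boxes (GGGCGG), common at promoters of broadly expressed genes, lay at 8.11% of the 111 loci against 28.5% of all loci, and ETS sequences (CCGGAAG) at 0.901% against 6.89%. With promoter loci left out on both sides the gaps were smaller, at 6.74% against 12.1% for GC boxes and 1.12% against 2.52% for ETS. Loci outside promoters in the rest of 8q were nearer to the window, at 8.24% for GC boxes and 1.98% for ETS. The median GC content was 45.3% against 48.7%. Outside promoters it was 44.7% against 45.5%, with 44.1% in the rest of 8q. TEAD sequences (GGAATG), bound by the partners of YAP, lay at 42.3% against 32.0%, and at 47.2% against 36.4% once promoter loci were left out on both sides. The TEAD share outside promoters in the rest of 8q was 33.4%. AP-1 sequences (TGACTCA or TGAGTCA), bound by FOS and JUN, lay at 39.6% against 35.7%, or 44.9% against 44.2% outside promoters. The strongest loci differed from this: of the 12 outside promoters with a peak in all libraries and a mean rank of 90 or more, 11 (91.7%) held an AP-1 sequence, against 59.0% of the 1183 such loci of the genome. Within 100 bp of the centre it was 8 of the 12 (66.7%), against 42.0%. The 12 are few, most of them were PVT1 introns, and this subset was not part of the planned comparison. Above the cut at 90 the 2 sets were not matched for rank. The one of the 12 without the sequence within 250 bp was the PVT1 intron at 195.6 kb. E-boxes (CACGTG), the sequence bound by MYC and MAX, lay at 5.41% against 7.76%, forkhead sequences (TGTTTAC) at 12.6% against 8.35%, RUNX sequences (TGTGGTT) at 9.91% against 13.2% and TCF/LEF sequences (CTTTGAT) at 6.31% against 5.87%. A match describes the letters present and shows no binding. No motif searched contains another.

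Summit positions varied between libraries at the same site. At the 41 loci with exactly 1 summit in each of the 6 libraries, the summits spanned a median of 289 bp, from 38 to 390 bp, which limits how finely an open site can be placed in these lists.

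Outside the window, promoter ranks were also read at genes that work with MYC. The list, taken from textbook knowledge, held 12 partners and relatives of MYC, of which 10 had a promoter peak in at least 1 library and 6 in all 6. The ranks lay wholly lower in SAP30-KO1 at 1 of these 10 genes, against 4.58% of the 12564 protein-coding genes with a promoter peak. They lay wholly higher at 0, against 6.01%. Counts this small cannot be told from these shares. The median difference over the 10 genes was −2.48, against 0.679 over all those protein-coding genes. MAX, the obligate partner of MYC, had 97.5 ± 2.14 for Parental and 96.2 ± 2.51 for SAP30-KO1. Of the MXD antagonists that recruit SIN3, MXD1 had 98.5 ± 1.25 and 95.6 ± 5.68, MXI1 had 73.3 ± 15.2 and 75.7 ± 11.8, MXD3 had 43.1 ± 30.5 and 43.3 ± 25.1, and MXD4 had 92.3 ± 6.81 and 89.3 ± 8.47. In each of these the groups overlapped. MNT, a further MAX partner that recruits SIN3, had 35.3 ± 7.44 and 30.3 ± 27.0, with no peak in SAP30-KO1 replicate 1. MLXIP, a glucose-responsive factor that pairs with MLX, was the lower gene, with 60.8, 45.9 and 51.7 in Parental and 42.1, 28.8 and 38.6 in SAP30-KO1 libraries. MGA, a MAX partner with a T-box, had a peak in SAP30-KO1 replicates 1 and 2 only (14.6 and 45.3). Of the MYC paralogs, MYCN had a peak in 1 Parental library (15.1) and MYCL in 3 libraries (30.8 in Parental replicate 1, and 18.1 and 6.32 in SAP30-KO1 replicates 1 and 2). MLX and MLXIPL had none.

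**Figure D5:**
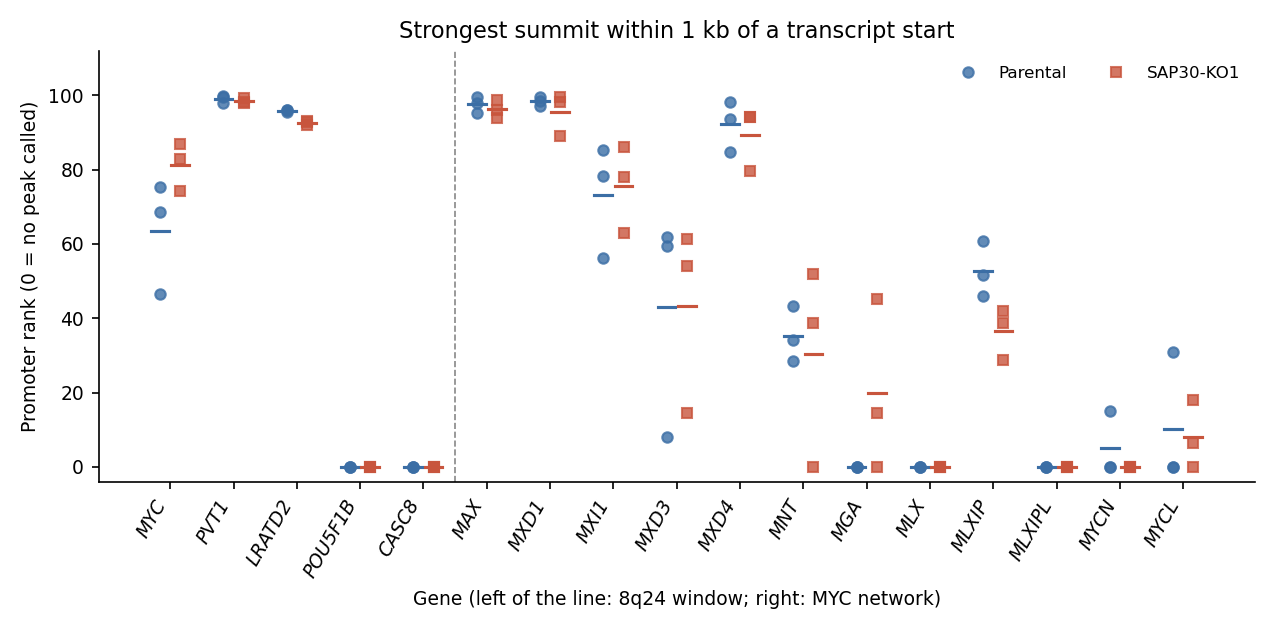
Promoter rank in each library (y axis, 0 for no peak called) for the 5 genes of the 8q24 window, left of the dashed line, and the 12 MYC network genes; circles are Parental, squares SAP30-KO1 and short lines group means of 3. Read over all annotated starts of a gene, MYC is the member with the widest gap between means (63.5 and 81.4). PVT1 and LRATD2 sit above 90 in all libraries, and POU5F1B and CASC8 are at 0. The 5′ end of PVT1 alone, with means of 29.8 and 11.5, is not drawn.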

How the data were processed

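The 6 ATAC-seq libraries (3 Parental, 3 SAP30-KO1) were grouped by their labels. The authors used Trim Galore on single-end reads, bowtie2 against hg19, Picard against duplicates and MACS2, keeping peaks at a q value up to 0.05. The deposited lists are per library, and their score is the −log10 q value. Transposase shift, blacklist filtering and treatment of mitochondrial reads are not given in the sources used here. An unshifted read moves a summit by a few bases only.

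Scores were turned into percentile ranks within each list, summits extended by 250 bp and merged, and the highest rank per library kept. Promoters were summits within 1 kb of a GENCODE release 44 start lifted to hg19. Group means of members were compared by exact permutation over 20 assignments. Alternatives were a stricter q, lists of equal length, an extension of 100 bp, ranks within 8q, a promoter distance of 500 bp or 2.5 kb, each library left out and a replicate block. Named loci were those with peaks in 1 group only, the 10 strongest shared ones, up to 5 per direction whose groups do not overlap, and member promoters. Loci in CASC8, at the 3′ end of MYC and beside the Parental-only locus were named after their values were seen. The members and lists were chosen with earlier results of these data known. The merging and counting were tested on simulated data. Python 3.11.15, numpy 2.4.6 and pandas 2.3.3 were used.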

Additional observations from a re-analysis of the deposited data

How the results depend on the processing

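Counts of loci with peaks in 1 group only depended on the threshold for a peak. At a q value of 0.0001 the Parental-only loci fell to 1 and the SAP30-KO1-only loci rose to 4. Extending summits by 100 bp left 28 loci in all libraries, since summits of 1 site then fall apart. An AP-1 sequence lay within 100 bp of the centre at 24.3% of loci, against 22.5% of all loci. When each library was left out in turn, the counts ran from 2 to 4 for Parental-only and for SAP30-KO1-only loci, from 8 to 15 for lower and from 10 to 15 for higher loci. For the stricter q value, the 100 bp extension and the libraries left out, no share over all loci is given. The counts under these settings can therefore not be set against a background. Fewer libraries make non-overlap easier, so the counts with a library left out grow by construction. They moved by over 1.5 times without any library except SAP30-KO1 replicate 3 for lower loci (8) and Parental replicate 2 for higher loci (10), without Parental replicate 2 for Parental-only loci (4), and without Parental replicate 1 or 2 for SAP30-KO1-only loci (4). The numbers of the replicates did not pair the samples, with correlations of deviations of −0.0178, −0.0126 and −0.00318 for the same numbers. Taken as a replicate block, they gave 13 lower loci (background 7.39%) and 14 higher ones (9.44%), and a MYC difference of 17.8 with p = 0.25 (exact sign-flip test, n = 3 pairs, the smallest possible).

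The MYC difference was −29.9, with overlapping groups, when only summits within 500 bp of the reference start were read. For upstream summits only it was 30.7, and both settings were added after the data were seen. Over all promoter summits, the MYC difference ranged from 9.32 to 23.8 with a library left out. It was 24.4 at a q value of 0.0001 and 20.5 with ranks within 8q, both with p = 0.1 (exact permutation test, n = 3 each). The LRATD2 difference kept its sign, and its groups stayed apart, in all alternatives run. The PVT1 difference ranged from −1.21 to −0.331 with a library left out, and the median of shared loci from −1.24 to −0.309 over all alternatives. The share of summits in the window changed sign, to 0.000626 percentage points, without Parental replicate 2. The other results kept their direction in all alternatives run. Depth could not be assessed, since the lists hold no read counts.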
